A study of Rattus norvegicus with 6 samples.

Results

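AP-1 is a family of dimeric transcription factors built from Fos and Jun proteins, and the related small Maf and BATF proteins dimerise through the same kind of basic leucine zipper. Messenger RNA for 10 of its genes was followed in GH4C1 cells, which come from a rat pituitary tumour and make growth hormone and prolactin. The genes were Fos, Fosb, Fosl1, Fosl2, Jun, Junb, Jund, Maff, Mafk and Batf, and they were read through all probe sets annotated to a single one of these symbols, 16 of the 31042 on the array. These are 10 of the 14217 genes that the array names. No probe set with several symbols named a member. All cultures had been exposed to lentiviral particles at a multiplicity of infection of 5 with polybrene at 2 µg/ml for 16 h, then grown for 4 days in Ham's F10 with horse and fetal calf serum. One group of 3 cultures carried pGK-POU1F1(R271W)-IRES-EGFP, which expresses a dominant negative form of the pituitary factor POU1F1 from the PGK promoter, and the other 3 were controls, for which the design text names pGK-EGFP. The R271W change was thus compared with EGFP alone and not with normal POU1F1, the cells also kept their own Pou1f1 gene, and whether transduced cells were selected is not given in the sources used here. RNA of each culture went to 1 Affymetrix array for rat, and the replicates are labelled as biological. With 3 arrays a group, their number limits how precise each value can be.

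Fos proteins bind DNA as dimers with another zipper protein, typically a Jun protein, whereas Jun proteins can also pair with each other. Growth factor, serum and stress signals raise AP-1 through MAP kinases, which act both on transcription of the Fos and Jun genes and on the proteins. Fos and Fosb are brief early responders, while Fosl1 (FRA-1) and Fosl2 (FRA-2) lack the strong activating end of Fos and tend to be made later and for longer. In pituitary cells AP-1 is known as a relay for hypothalamic peptides and growth factors to hormone genes.

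Defining markers of the line were bright. Prl gave a mean signal of 4332 in controls and 3175 in R271W cells, Gh1 of 6443 and 6338, and Pou1f1 of 2301 and 1836. Of the 5 somatolactotroph markers tested, Prl (log2 -0.45, limma adjusted p = 0.00048), Pou1f1 (-0.33, 0.00486) and Sstr2 (-0.78, 0.00787) fell, Chgb rose (0.46, 0.000337) and Gh1 was not called. Ghrhr, Drd2 and Pcsk2, the other 3 of 8, lay below the brightness filter of the test. Every measured marker of corticotrophs, thyrotrophs, folliculostellate cells and glia, fibroblasts, endothelium and immune cells also lay below it. Of the gonadotroph markers, Lhb and Fshb passed it, at group means between 11.2 and 29.3 and without a called change. Of the array controls, the 18 hybridisation spike probe sets had a mean log2 signal 0.23 higher on the R271W arrays. The 3' probe set of beta-actin exceeded its 5' probe set 1.82 ± 0.00763 times (SD, n = 3) in controls and 1.96 ± 0.099 times (n = 3) in R271W cells, and neither measure overlapped between groups. The same comparison with the middle probe set of beta-actin overlapped, as did those for GAPDH and the level of the poly-A spikes. The part of these values in the results was not tested.

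The RefSeq promoter table held 8 of the 10 genes and lacked Fos and Jun. The 250 bases before the start are printed in the GRCr8 build for Fosl1, Fosl2, Jund and Maff. Fosl1 (chr1:212183635-212183884, plus strand) and Fosl2 (chr6:30039270-30039519, minus strand) are the genes whose transcripts fell. Jund (chr16:18769772-18770021, minus strand) and Maff (chr7:112792537-112792786, plus strand) are shown beside them because their transcripts were not called and their promoters hold the full cyclic AMP response element. They were thus picked partly by these letters. Junb and Mafk, which were also not called, lack the full element, so the printed windows are no comparison of fallen with uncalled genes. Capitals mark TGACG on either strand, which includes TGACGTCA, and the octamer ATGCAAAT.
Fosl1: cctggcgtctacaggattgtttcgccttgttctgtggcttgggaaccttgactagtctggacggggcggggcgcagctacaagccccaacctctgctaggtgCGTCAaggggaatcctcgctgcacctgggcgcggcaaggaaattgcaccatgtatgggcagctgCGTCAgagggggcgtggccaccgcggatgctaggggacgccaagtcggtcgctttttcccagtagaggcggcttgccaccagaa
Fosl2: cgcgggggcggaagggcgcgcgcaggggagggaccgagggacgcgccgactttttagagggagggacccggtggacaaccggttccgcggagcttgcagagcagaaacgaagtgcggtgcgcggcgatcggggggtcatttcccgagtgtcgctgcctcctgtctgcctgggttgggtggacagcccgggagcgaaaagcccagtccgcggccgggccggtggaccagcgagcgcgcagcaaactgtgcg
Jund: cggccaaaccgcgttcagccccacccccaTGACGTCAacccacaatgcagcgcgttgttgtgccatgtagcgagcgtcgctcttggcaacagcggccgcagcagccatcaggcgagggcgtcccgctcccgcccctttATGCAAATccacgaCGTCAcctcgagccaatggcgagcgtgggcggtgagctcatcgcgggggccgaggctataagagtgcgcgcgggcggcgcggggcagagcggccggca
Maff: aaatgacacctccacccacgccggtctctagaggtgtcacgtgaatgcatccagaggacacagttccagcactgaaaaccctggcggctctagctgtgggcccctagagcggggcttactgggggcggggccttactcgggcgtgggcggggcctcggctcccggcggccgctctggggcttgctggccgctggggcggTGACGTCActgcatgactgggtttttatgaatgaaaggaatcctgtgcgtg

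Letters were searched on both strands of these windows. The classical AP-1 site TGANTCA was in 0 of the 8 member promoters, which do not include Fos and Jun. It was in 6.34% of all 33469 promoters of that length. The full cyclic AMP response element TGACGTCA was in 2 members, Jund and Maff, and in 1.59% of all promoters. Its TGACG part, which the full element contains, was in 6 of 8 and in 18.2% of all. Fosl1 held it at 2 places, ending 144 and 80 bases before the start, and Fosl2 held none of the letters searched. TATNCAT, a form of the POU1F1 site, was found in Fosb (8.73% of all promoters) and the octamer ATGCAAAT in Jund (1.56%). The Maf recognition element was in 0 of the 8 members (0.00598% of all), as was the CArG box bound by serum response factor (1.5%). Fos and Jun themselves could not be searched. In base composition the Fosl1 and Fosl2 windows were 62% and 70.4% G and C, against a median of 51.2% over all promoters. Those of the uncalled Junb, Jund, Maff and Mafk were 66%, 68.4%, 63.6% and 67.6%. The untested Batf and Fosb had 43.2% and 43.6%. The shares of motif letters given above were not matched for base composition. These matches describe letters in a short window and say nothing of binding in these cells.

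Transcripts of the late Fos genes Fosl1 and Fosl2 fell to between 0.384 and 0.577 of their control signal in R271W cells, and no probe set of the Jun genes, the small Maf genes or Fos itself was called. In RNA from whole cultures, fewer cells with a transcript and less of it per cell cannot be told apart. Of the 16 member probe sets 11, from 8 genes, passed a brightness filter (mean log2 signal at or above the 40th percentile of all probe sets, a signal of 11.2) and were tested with limma on log2 signal. At a Benjamini-Hochberg adjusted p under 0.05 over all 18625 tested probe sets, 3 fell and 0 rose, against a background of 7.22% of tested probe sets lower and 8.57% higher, 15.8% in all. The 3 came from 2 genes, and the members were chosen with earlier results of these data known. The tested members lay at the 59th to 98.6th percentile of mean signal, so brighter than much of that background. With the filter at the 60th percentile, 3150 of 12417 probe sets were called, 1523 of them lower. At an unadjusted p under 0.05 the tested members had 6 lower and 2 higher, where all tested probe sets had 12.5% lower and 16.9% higher. The groups did not overlap for 7 of the 11, with 5 lower and 2 higher in R271W cells, while 33.9% of all tested probe sets showed such separation (14.2% lower and 19.7% higher). The median log2 change was -0.36 over the tested members and 0.07 over all tested probe sets. In the plot of signals by array the Fosl1 and Fosl2 points of the 2 groups lie clearly apart.

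**Figure D1:**
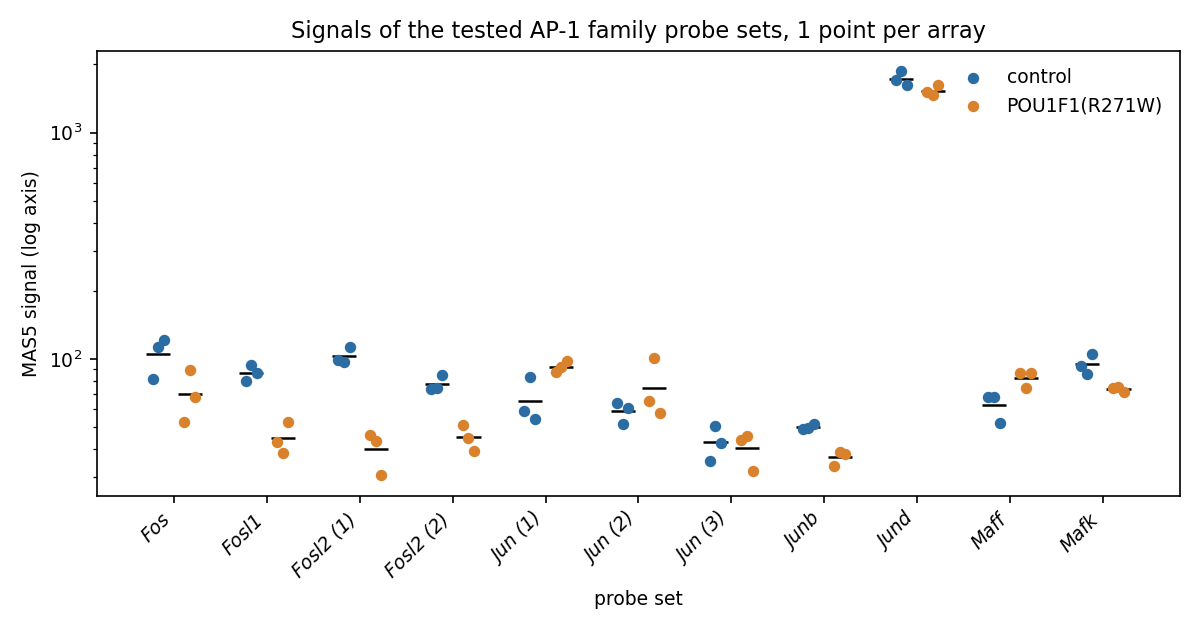
MAS5 signal (log axis) of the 11 tested probe sets of the AP-1 family, with 1 point per array, control cultures in blue and POU1F1(R271W) cultures in orange, and a bar at each group mean. Numbers in brackets tell probe sets of 1 gene apart, from the brightest to the dimmest. The R271W points of Fosl1 and of both Fosl2 probe sets lie between 30.6 and 52.5, below all control points of the same probe sets.

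Fosl2 encodes FRA-2, a Fos protein with a lasting expression pattern. Its brighter probe set read 99.4, 96.9 and 113 in control replicates 1 to 3 and 46.3, 43.5 and 30.6 in R271W replicates 1 to 3. The highest R271W array was thus far below the lowest control. Its log2 change came to -1.38, with a 95% confidence interval from -1.82 to -0.94 (limma adjusted p = 0.000541), which is 2.6-fold lower in R271W cells. The second probe set read 73.7, 74.8 and 84.6 in controls and 51.2, 44.6 and 39.2 in R271W cells. It also separated the groups, with a smaller log2 change of -0.79 (interval -1.22 to -0.37, limma adjusted p = 0.0143). This second call ended without control replicate 3 (log2 change -0.73, adjusted p = 0.066), while that of the brighter probe set held without any single array.

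Fosl1 encodes FRA-1, a Fos protein known from growth factor signalling and cell migration. It read 80.1, 94.3 and 86.9 in controls and 43.1, 38.6 and 52.5 in R271W cells. Every R271W array was below every control, and the means were 87.1 ± 7.1 and 44.7 ± 7.11 (SD, n = 3 each). The log2 change was -0.97 (interval -1.39 to -0.55, limma adjusted p = 0.00422), or 1.96-fold lower. Under the 17 alternatives of processing the change lay between -1.17 and -0.87 and passed in each.

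Fos, the founding immediate early gene of the family, read 81.8, 113 and 121 in controls and 52.6, 89.8 and 67.6 in R271W cells. R271W replicate 2 exceeded control replicate 1, so the groups overlapped. The log2 change was -0.60 (interval -1.07 to -0.14, limma adjusted p = 0.0762), which missed the threshold. It passed without control replicate 1 (-0.77, adjusted p = 0.0452) or R271W replicate 2 (-0.80, 0.0347), and with quantile normalization (-0.72, 0.0435), median centring (-0.80, 0.02) or 75th percentile centring (-0.69, 0.0431). A dimmer Fos probe set and the single Fosb probe set, both below the filter, ranged from 0.691 to 22.4 over the arrays with overlapping groups. Their spread between arrays of 1 group was wider than the difference between group means.

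None of the Jun genes was called. Jun, which encodes the main partner of Fos proteins, read 59.1, 83.1 and 54.1 in controls and 87.2, 92.1 and 97.6 in R271W cells on its brightest probe set. All R271W arrays lay above all controls there, with control replicate 2 nearest to them. The log2 change was 0.52 (interval 0.11 to 0.93, limma adjusted p = 0.0826), which passed only without control replicate 2 (0.71, adjusted p = 0.0314) among the 17 alternatives. The other Jun probe sets did not share that separation. One read 63.7, 51.4 and 61 in controls and 64.9, 101 and 58 in R271W cells (log2 0.31, adjusted p = 0.395), where only R271W replicate 2 stood out. The dimmest read 35.6, 50.8 and 42.4 against 43.9, 45.9 and 32 (log2 -0.08, adjusted p = 0.869). Both list the same source accession in the annotation, so they are not independent views of Jun.

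Junb, whose protein is a Jun partner that often restrains Jun, read 48.9, 49.5 and 51.7 in controls and 33.6, 38.8 and 38 in R271W cells. The groups were apart, yet the log2 change of -0.45 (interval -0.93 to 0.04) did not pass (limma adjusted p = 0.214), and its highest and lowest adjusted p over the alternatives were 0.362 and 0.0637. Jund, which encodes the Jun protein most steadily present in resting cells, read 1701, 1871 and 1625 in controls and 1507, 1462 and 1630 in R271W cells on its bright probe set. R271W replicate 3 reached the range of the controls. The log2 change was -0.18 (interval -0.34 to -0.01, limma adjusted p = 0.137), and with median centring it became -0.37 (adjusted p = 0.00516), but with quantile normalization -0.04 (0.689). The other 2 Jund probe sets lay below the filter, at 0.877 to 19.8, and overlapped.

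Small Maf proteins lack an activating domain of their own and serve as partners for other zipper proteins. Mafk read 92.9, 85.8 and 105 in controls and 74.3, 75.1 and 71.7 in R271W cells. The R271W arrays were close together and all lower, with a log2 change of -0.36 (interval -0.70 to -0.01, limma adjusted p = 0.154) that passed only under median centring (-0.55, adjusted p = 0.0257). Maff read the other way, at 67.6, 67.9 and 52.1 in controls and 86.7, 74.4 and 86.4 in R271W cells. Its arrays also did not overlap, with a log2 change of 0.41 (interval 0.01 to 0.80, adjusted p = 0.155) that passed under none of the alternatives. Batf, a family member best known from lymphocytes, was below the filter, at 0.918 to 14.9 with overlapping groups.

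**Figure D2:**
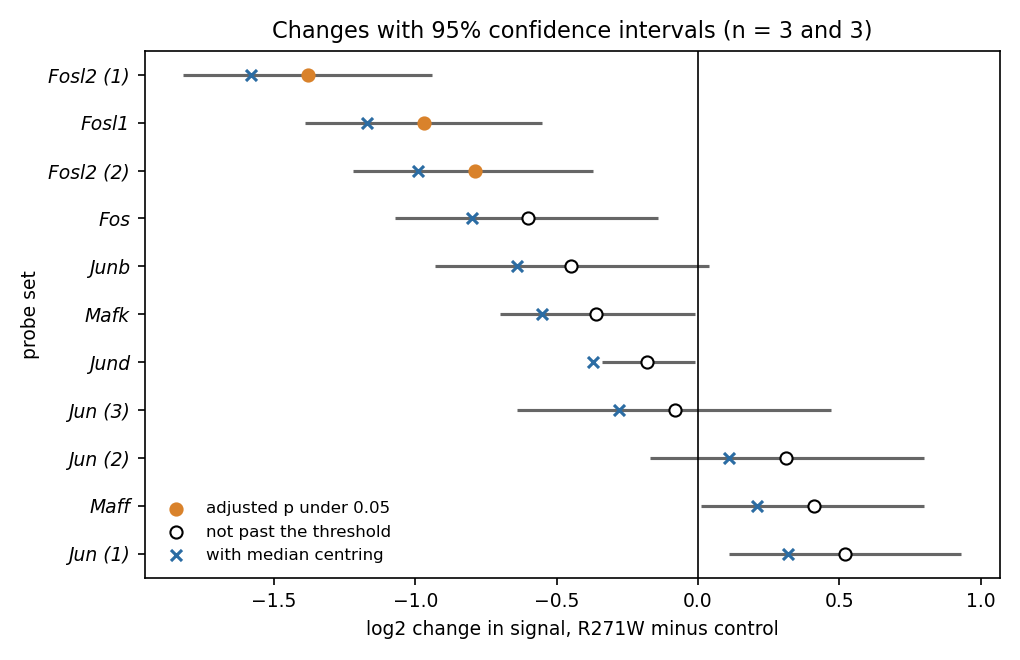
Log2 change in signal (R271W minus control) for the 11 tested probe sets, with 95% confidence intervals from limma. Filled points passed an adjusted p of 0.05, and crosses show the same change with median centring of the arrays. Only Fosl1 and both Fosl2 probe sets are filled, at -0.97, -1.38 and -0.79, and each cross lies to the left of its point.

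Centring the arrays moved all members the same way, while quantile normalization moved them by unequal amounts. The R271W arrays had higher median signals (25.5 to 26.9 against 22.4 to 22.9), so centring on the median moves the median of all tested changes from 0.07 to -0.13. Under it 6 member probe sets fell, namely those of Fos, Fosl1, Fosl2, Jund and Mafk, while the share of all tested probe sets that fell went from 7.22% to 16.8%. Ratios within an array do not depend on this scaling, and they were formed against the brightest Jund and the brightest Jun probe set, a choice made after the values were seen. Such a ratio shows that 2 probe sets changed unequally, not which of them moved. The Jund reference is the only Jund probe set above the filter. The other 2 read 0.877 to 19.8, and why they differ so far from it was not tested. Of 10 probe sets set against Jund, the ratio separated the groups for 5, 3 lower and 2 higher. Over all tested probe sets the ratio to Jund was lower without overlap for 5.61% and higher for 30.5%. It was lower in R271W cells for both Fosl2 probe sets (log2 changes of -1.20 and -0.62) and Fosl1 (-0.79), and higher for Jun (0.70) and Maff (0.58). The ratios of Fos (-0.43), Junb (-0.27) and Mafk (-0.18) to Jund overlapped between the groups.

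Against Jun, 8 of 10 ratios were lower in R271W cells without overlap, and all share the same Jun values. So were 34.7% of the ratios of all tested probe sets to Jun, with 1.9% higher, on a reference that itself read 0.52 higher. The log2 ratio of the brighter Fosl2 probe set to Jun went from 0.68 ± 0.42 in controls to -1.22 ± 0.40 in R271W cells, and that of Fosl1 from 0.43 ± 0.25 to -1.06 ± 0.18 (SD, n = 3 each). The ratio of Fos to Jun also separated the groups, with a change of -1.12. An exact two-sided permutation test of 3 against 3 arrays cannot give a p below 0.1, so these 20 ratios are given without a call. The other Jun probe sets, with their own changes of 0.31 and -0.08, were not used as the reference of a ratio.

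**Figure D3:**
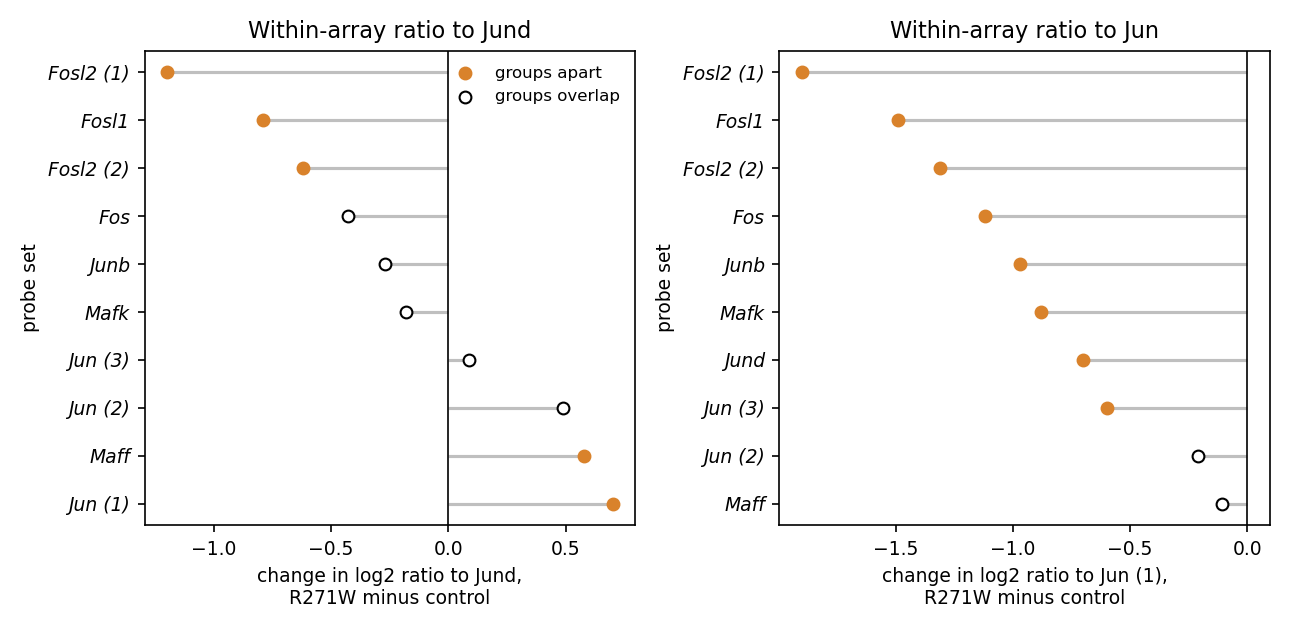
Change in the within-array log2 ratio (R271W minus control) of each tested AP-1 family probe set to the brightest Jund probe set (left) and the brightest Jun probe set (right). Filled points mark ratios whose 3 R271W arrays lay apart from the 3 controls. Fosl2 and Fosl1 lead both panels, and Jun and Maff lie above 0 against Jund.

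The wider pathway was read from 4 lists with 60 tested genes, each gene by its brightest probe set. Of these 11 fell and 6 rose, against 8.98% lower and 9.87% higher, 18.9% in all, among 10143 tested genes. The lists were chosen with earlier results of these data known, so their counts are a description and not a test. The median log2 change was -0.18 for the other zipper proteins and 0.02 for the MAP kinase input. It was 0.11 for cofactors and turnover factors and -0.29 for known AP-1 targets, beside 0.06 over all genes. Without the intensity trend in the variance model only 1 gene of the 4 lists fell, Ezr, and 2 rose, Cd44 and Ep300. All other calls of the lists ended, among them Mapk14 (limma adjusted p = 0.0736), Rps6ka3 (0.0649), Cops5 (0.072), Nqo1 (0.0539), Gclc (0.062) and Odc1 (0.0726). The calls of Fosl1 and both Fosl2 probe sets held under that setting (adjusted p between 0.0248 and 0.0378).

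In the list of other zipper proteins, 3 of 8 tested genes fell and 0 rose, where 8.98% of all tested genes fell and 9.87% rose. The list held partners of Fos, Jun or Maf proteins and also related zipper proteins such as Crem and Creb1. Next by p were Mafg (log2 -0.34, limma adjusted p = 0.121) and Jdp2 (0.61, 0.368). A dimmer Mafg probe set read -0.01 (limma adjusted p = 0.979). Atf4, a factor of the amino acid and stress response, fell by 0.26 on the log2 scale (limma adjusted p = 0.0156). Nfe2l2, which encodes NRF2, an oxidant response factor that pairs with small Maf proteins, fell by 0.29 (0.0167), and Crem, a cyclic AMP responsive factor, by 0.37 (0.0216). All 3 changes were small and each call ended without some single arrays. Atf4 lost it without control replicate 1 or 2 or R271W replicate 1 or 2 (adjusted p 0.0507 to 0.0805). Nfe2l2 lost it without control replicate 2 or 3 or R271W replicate 1 or 2 (0.0519 to 0.0765), and Crem without control replicate 2 or 3 or R271W replicate 2 or 3 (0.0513 to 0.0981). Under quantile normalization Atf4 (0.0713) and Nfe2l2 (0.0743) did not pass. Atf3, a stress-induced Jun partner, lay below the filter with Batf2, Batf3, Maf, Mafa, Nfe2 and Bach1.

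Of 21 genes of the MAP kinase input 2 fell and 3 rose, where 8.98% of all tested genes fell and 9.87% rose. Mapk14, the p38 alpha kinase, read 306, 311 and 347 in controls and 256, 217 and 208 in R271W cells (log2 -0.50, limma adjusted p = 0.00663). Rps6ka3, which encodes the ERK-activated kinase RSK2, read 267, 262 and 281 against 344, 390 and 360 (log2 0.43, adjusted p = 0.0067), and a dimmer probe set rose by 0.69. Both kinases separated the groups completely. Under median centring the change of Rps6ka3 was 0.24 and did not pass (adjusted p = 0.128). Map2k1, which encodes the ERK kinase MEK1, had a log2 change of -0.32 (adjusted p = 0.0422), Rps6ka5, the kinase MSK1, of 0.40 (0.0332) and Elk3, a partner of serum response factor, of 0.40 (0.0476). These 3 calls were the least secure. That of Map2k1 ended without any control array or R271W replicate 2 or 3 (adjusted p 0.0806 to 0.118) and that of Rps6ka5 without any control array or R271W replicate 1 (0.0579 to 0.127). That of Elk3 ended without control replicate 1 or 2 or any R271W array (0.0838 to 0.159). Median centring gave adjusted p values of 0.243 for Rps6ka5 and 0.33 for Elk3. A dimmer Rps6ka5 probe set read 0.30 and did not pass (limma adjusted p = 0.185). Of the other Elk3 probe sets, one rose by 1.00 and the dimmest read -0.82 without passing.

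Among 17 cofactors and turnover factors 1 fell and 2 rose, where 8.98% of all tested genes fell and 9.87% rose. Ep300, a histone acetyltransferase that Fos and Jun recruit, read 442, 512 and 519 in controls and 683, 803 and 871 in R271W cells (log2 0.67, limma adjusted p = 0.000558). Cops5, which encodes the Jun-binding COP9 subunit JAB1, read 998, 1097 and 1009 against 775, 766 and 814 (log2 -0.40, adjusted p = 0.00258). Both separated the groups without overlap. Smarcd1, a subunit of chromatin remodelling complexes that binds Fos and Jun, had a log2 change of 0.74 (adjusted p = 0.0199). Its call ended without control replicate 2 or R271W replicate 1 or 2 (0.055 to 0.0762) and under median centring (0.064). Cop1, a ubiquitin ligase that acts on Jun, read -0.39 (adjusted p = 0.185) and Nfatc1, which binds DNA with AP-1, read 0.42 (0.251). Without R271W replicate 1 the change of Cop1 was -0.67 and passed (adjusted p = 0.00641). A dimmer tested Cop1 probe set read the other way, at 0.41, and did not pass (limma adjusted p = 0.67).

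Among known AP-1 targets 14 of 35 on the array were bright enough to test, and 5 fell and 1 rose. Over all tested genes 8.98% fell and 9.87% rose. The matrix protease genes Mmp3, Mmp9, Mmp10, Mmp12, Mmp13 and Mmp14, with Plau, Plaur, Timp1, Spp1 and Ccnd1, were among the 21 below the filter, so many of the best known targets gave no test. Ezr, which encodes the membrane linker ezrin, read 748, 744 and 776 in controls and 333, 283 and 295 in R271W cells (log2 -1.32, limma adjusted p = 1.15e-06). Cd44, the hyaluronan receptor, read 296, 281 and 246 against 439, 490 and 475, a rise of 0.77 (adjusted p = 0.000173), and its other probe set rose by 0.92. Ezr and Cd44 thus moved apart, each without overlap between groups. Nqo1 (log2 -0.70, adjusted p = 0.000956), Gclc (-0.47, 0.00442) and Hmox1 (-0.57, 0.0112) also fell. They encode antioxidant and haem-degrading enzymes that are better known as targets of NRF2 with small Maf partners than of Fos and Jun. Hmox1 is named after its value was seen, and its call ended without control replicate 3 (adjusted p = 0.0593) or R271W replicate 2 (0.0538). Odc1, the first enzyme of polyamine synthesis, fell from 2671 ± 27 to 2083 ± 22.1 (SD, n = 3 each, log2 -0.36, adjusted p = 0.00134).

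**Figure D4:**
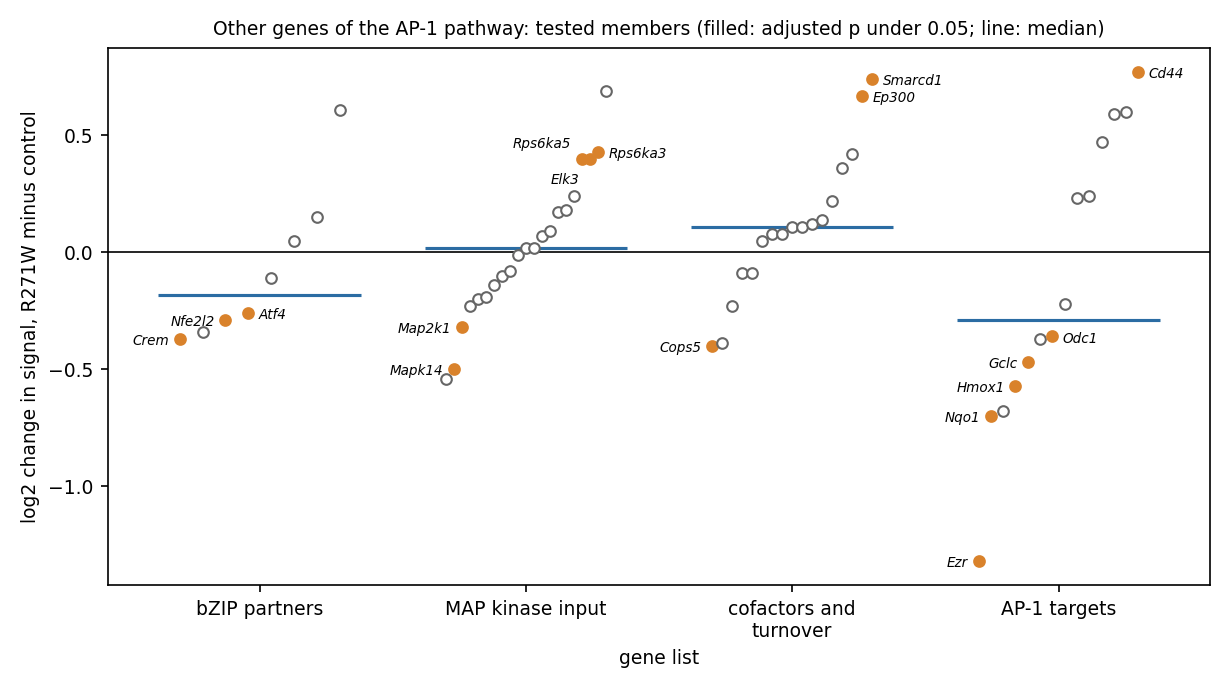
Log2 change in signal (R271W minus control) of each tested gene of the 4 AP-1 pathway lists, with 1 point per gene, ordered by change within its list. Filled and named points passed an adjusted p of 0.05, and lines mark the medians, from -0.29 for targets to 0.11 for cofactors and turnover factors. Ezr lies lowest at -1.32 and Cd44 highest at 0.77.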

How the data were processed

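The deposited values are intensity values made by the authors with MAS5, with 1 linear signal for each probe set, per the submitters' processing notes. Version and settings: not given in the sources used here. The mean of each array, trimmed by 2% at each end, was 100 in the deposited values. Of 31099 probe sets 57 were controls and were left out, and 20826 had 1 symbol, updated by Entrez ID through the GRCr8 gene table.

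Log2 signals of 3 control and 3 R271W arrays were fitted without further scaling in limma 3.58.1 under R 4.3.3 (lmFit with group as the term, then two-sided eBayes tests with an intensity trend). Probe sets with a mean at or above the 40th percentile were tested and p-values were adjusted over all 18625 with a threshold of 0.05. A gene of a list was read by its brightest probe set. The 17 alternatives were other scalings, filters, floors and variance models, array weights, a replicate block and leaving out each array. On simulated data with 18625 tested probe sets the fit recovered 22 of 62 log2 changes of 1 and 1 of 62 of 0.5, with 1 false call among 24. So few changed probe sets make the adjusted threshold stricter than in these data, where 2940 were called. The recovery in the simulation therefore does not give the share of changes missed here. Plots used matplotlib 3.10.9 under Python 3.11.15.

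The members, the lists and the rule for naming genes (every member, and up to 5 genes with the smallest p in each list) were chosen with earlier results of these data known. Among the list genes given with values, Hmox1 lies outside that rule. Promoter sequences are RefSeq's, in GRCr8.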

Additional observations from a re-analysis of the deposited data

How the results depend on the processing

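The count of family probe sets called lower depended on the scaling. It was 3 with the chosen settings and 2 to 4 when single arrays were left out. Each other scaling gave more, with 4 under quantile normalization, 4 under 75th percentile centring and 6 under median centring. Those called higher numbered 0, or 0 to 1 when single arrays were left out. The direction reversed for 1 family probe set, the dimmest of Jun, at 0.05 without control replicate 2, 0.08 without R271W replicate 3 and 0.09 as a ratio to Jund (-0.21 to 0.08 over the arrays left out, -0.08 with all). Over all probe sets 2940 were called, 2042 to 2673 without single arrays and 1065 without the intensity trend. Over the 4 pathway lists 11 genes fell and 6 rose. Without single arrays 6 to 10 fell and 3 to 5 rose. With no intensity trend the lists had 1 that fell and 2 that rose, and under median centring 16 fell and 2 rose. Median centring cut the share of calls that were higher over all probe sets from 54.3% to 18.9%, and 75th percentile centring to 36.9%. The cause of these differences was not tested. Same-numbered arrays did not deviate together (correlations of -0.002, 0.01 and -0.02). Whether cultures of the same number were handled as pairs is not given in the labels, and these values cannot tell. With the replicate block 4 family probe sets fell, Fos being added (-0.60, adjusted p = 0.0441), and 2479 of all probe sets were called. Under that block the calls of Atf4 (adjusted p = 0.0565), Map2k1 (0.0673) and Elk3 (0.0722) ended. For the 5 family probe sets below the filter signal of 11.2, the SD of at least 1 group exceeded the difference between the group means.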
